A study of Homo sapiens with 8 samples.

Results

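CTCF-bound RNA in the 5′ part of protein-coding genes, the side where transcription begins, is described here. CTCF is a zinc finger protein best known for binding DNA and shaping chromatin loops, and it also contacts RNA. IMR90 cells are human lung fibroblasts of wild-type genotype. They were either proliferating and untreated or made senescent with a treatment named ICM in the labels, senescence being a lasting arrest of cell division. In both states the cells were irradiated with ultraviolet light at 400 mJ/cm2, and RNA crosslinked to CTCF was recovered by enhanced crosslinking and immunoprecipitation (eCLIP) with an anti-CTCF antibody. Each state had 2 eCLIP libraries and 2 input libraries made without antibody, 8 libraries in all.

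The values come from 1 list of peaks per state on build hg38, and the read depth behind them is unknown. A peak was counted as a 5′-part peak when its middle base lay in the first of 3 equal parts of the span of a protein-coding gene, read 5′ to 3′ on the peak's own strand. This held for 31 of 147 proliferating peaks and 190 of 572 senescent peaks, or 221 of 719 in all. Peaks within 50 nt of each other on the same strand were joined into sites, which gave 24 proliferating and 94 senescent sites. These lay in 19 and 86 genes, which are 0.0947% and 0.429% of the 20056 annotated protein-coding genes. The lists hold no values of single replicates, so no spread between replicates can be given, and tests over sites compare the lists and not the conditions.

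The start of a transcript carries the cap, the 5′ untranslated region and, in most genes, the first splice donor. Proteins that bind there contact either the nascent transcript or the mature messenger RNA. The lists do not tell exonic from intronic positions, and exon positions were not used here. RNA levels in the 2 states were not used either, so more RNA and more binding per RNA molecule cannot be told apart.

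Some senescent sites touched the annotated first base of a transcript. Shown here are sites that reached into a window of 250 nt before to 50 nt after an annotated start of their gene. All had a senescent site, and 2 more, TSG101 with 4 bound bases and AEBP2 with none in the stretch around the start, are left out. No proliferating site reached such a window, but windows were matched for only 14 of the 24 proliferating 5′-part sites. The bases are RefSeq reference sequence (GRCh38.p14, the hg38 assembly), written 5′ to 3′ on the strand of the gene. Capitals mark bases inside a listed senescent peak. In each run but that of U2AF2, the annotated start follows the first 20 bases, and the U2AF2 run holds bases 21 to 50 of the gene. The starts used for HSP90AB1, AHDC1, TAF1B and LAMTOR5 lie inside the gene, downstream of its outermost annotated 5′ end. The TAF1B, LAMTOR5 and U2AF2 sites began 12, 21 and 34 nt after the start used. Bound bases before an annotated start lie outside a transcript begun there. Whether the bound RNA began at these starts was not tested.
CIART, chr1:150282534-150282583, plus strand: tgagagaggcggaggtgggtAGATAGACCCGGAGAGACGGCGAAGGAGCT
TMBIM6, chr12:49741537-49741586, plus strand: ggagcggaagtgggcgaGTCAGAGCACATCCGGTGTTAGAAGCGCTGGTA
HSP90AB1, chr6:44247081-44247130, plus strand: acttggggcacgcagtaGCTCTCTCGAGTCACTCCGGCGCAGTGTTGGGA
DVL3, chr3:184155357-184155406, plus strand: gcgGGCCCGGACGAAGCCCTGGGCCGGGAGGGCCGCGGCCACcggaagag
AHDC1, chr1:27603465-27603514, minus strand: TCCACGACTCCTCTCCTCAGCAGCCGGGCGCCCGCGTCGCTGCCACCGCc
TAF1B, chr2:9843454-9843503, plus strand: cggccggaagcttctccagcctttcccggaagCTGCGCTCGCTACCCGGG
LAMTOR5, chr1:110407665-110407714, minus strand: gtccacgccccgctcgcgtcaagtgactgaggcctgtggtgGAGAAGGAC
U2AF2, chr19:55655055-55655084, plus strand: gcggcaaggcgaggCGAAAGCTGCACAGGG

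The CIART site began exactly at the annotated start. The TMBIM6 and HSP90AB1 sites each began 3 nt before theirs and the DVL3 site 17 nt before. The AHDC1 site began 25 nt before its start. The highest -log10 p-value of the site was 4.18 in DVL3, 4.41 in TMBIM6, 5.96 in AHDC1 and 7.57 in TAF1B. It was 7.86 in CIART, 9.30 in LAMTOR5, 15.3 in HSP90AB1 and 41.8 in U2AF2. Of the printed sites, only those of HSP90AB1 and U2AF2 thus reached the minimum of 10 used below. Within the printed runs the bound bases were 54.5% G or C in TMBIM6, 60% in CIART, 63.6% in HSP90AB1, 75.5% in AHDC1 and 84.6% in DVL3. The bound bases thus differed in composition from gene to gene. VEGFA and EXT1, for which no window was matched, had senescent sites that began 1 nt before and exactly at the outermost 5′ end.

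Along the gene, the senescent list had a larger share of its sites in the 5′ part than the proliferating list. The share was 34.2% of senescent sites in protein-coding genes (94 of 275, with an exact 95% interval from 28.6% to 40.1%) and 22.4% of proliferating sites (24 of 107, interval 14.9% to 31.5%). They differed by 11.8 percentage points, with a two-sided Fisher's exact p of 0.0268. All intervals given are of the Clopper-Pearson type and reflect counting error alone. In the proliferating list, 36 sites lay in the middle part and 47 in the part nearest the 3′ end, and in the senescent list 75 and 106, so the 3′ part held the most sites in both. Sites of 1 gene are not independent. With 1 site per gene the difference was 8.78 points (Fisher's exact p 0.223), with peaks of a -log10 p-value of at least 10 it was 7.62 points (Fisher's exact p 0.328), and with only peaks above the median signal value of their list 6.49 points (Fisher's exact p 0.470).

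**Figure D1:**
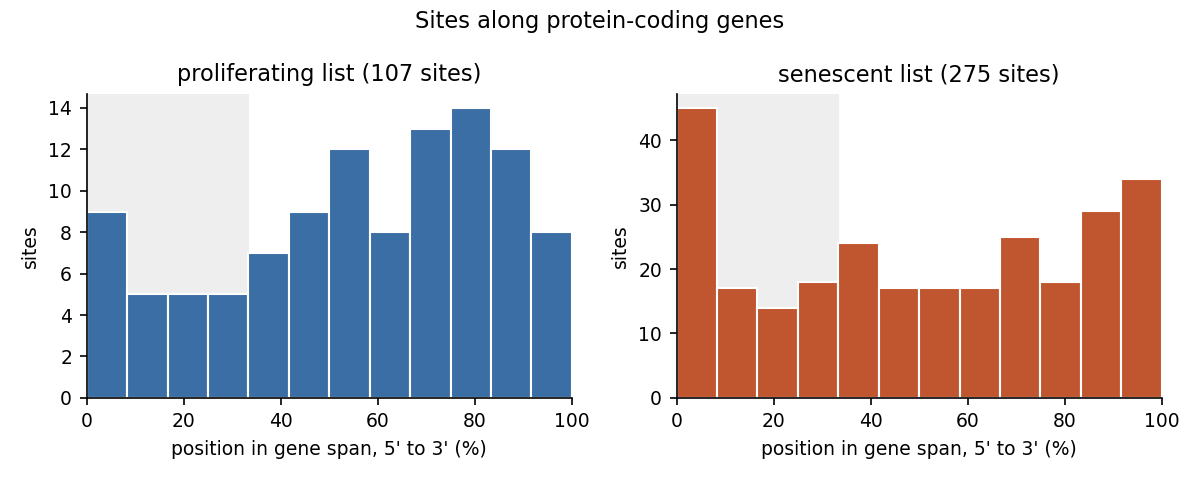
Number of merged sites (y axis) by position in the gene span from 5′ to 3′ (x axis, percent of the span, 12 equal bins), for the proliferating list (left, 107 sites) and the senescent list (right, 275 sites), each on its own y scale. The grey band is the 5′ part, which holds 24 proliferating and 94 senescent sites, and the first bin is the highest of the senescent panel.

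The members closest to the edge of the rule were PDZRN3, with a senescent peak at 33.3% of the span, and MED12L, with a proliferating peak at 29.2%. Just outside lay ACADVL at 34.6% in the senescent list and PID1 at 36.5% in the proliferating list.

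Distance from the annotated 5′ end, the outermost base of the gene in the annotation, spread over several orders of magnitude. Proliferating sites lay 72 to 102478 nt from it with a median of 1740 nt (quartiles 602 and 5869 nt). Senescent sites lay 22 to 173383 nt from it with a median of 2006.5 nt (quartiles 404 and 12738.5 nt). These medians moved with the setting, from 856 to 3252.5 nt in the proliferating and from 1255.5 to 4061 nt in the senescent list. Within 50 nt there were 0 proliferating and 4 senescent sites, within 500 nt 6 and 26, within 1000 nt 11 and 36, within 5000 nt 17 and 58, and within 50000 nt 22 and 87. Sites within 1000 nt were 45.8% of proliferating (exact 95% interval 25.6% to 67.2%) and 38.3% of senescent 5′-part sites (exact 95% interval 28.5% to 48.9%), and the intervals overlap. The same 1000 nt made up 5.08% and 3.05% of the summed 5′-part length of these genes. Long genes weigh most in that sum, such as MED12L with a span of 350990 nt, and introns are included. The genes were taken for holding a 5′-part site, so these shares are a description alone.

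**Figure D2:**
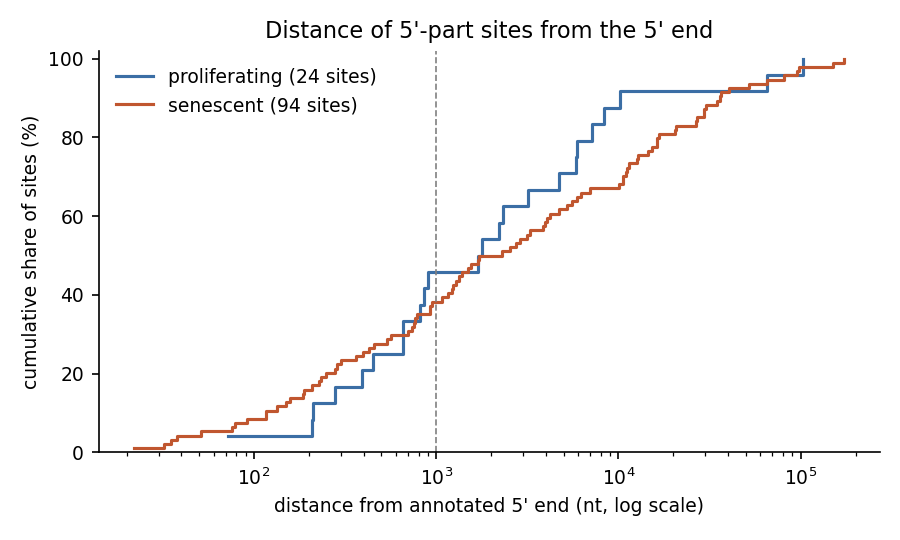
Cumulative share of 5′-part sites (y axis, percent) by distance of the site's middle base from the annotated 5′ end (x axis, nt, log scale) for 24 proliferating and 94 senescent sites. The dashed line is at 1000 nt, by which 45.8% of the proliferating and 38.3% of the senescent sites are reached.

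Split at 1000 nt, the shares of the lists lay as follows, with overlapping intervals near the start and, narrowly, beyond it. Sites within 1000 nt were 10.3% of proliferating (exact 95% interval 5.24% to 17.7%) and 13.1% of senescent sites in protein-coding genes (exact 95% interval 9.34% to 17.7%). 5′-part sites beyond 1000 nt were 12.1% (exact 95% interval 6.63% to 19.9%) and 21.1% (exact 95% interval 16.4% to 26.4%). Whether this contrast between near and far sites differs between the lists was not tested. No site outside the 5′ part lay within 1000 nt of the outermost 5′ end of its gene in either list. The rule fixes this for all but short genes, whose 5′ part is shorter than 1000 nt. Measured from the nearest annotated start, 3 senescent sites outside the 5′ part lay within 1000 nt, 1 of them within 50 nt, and 0 proliferating sites did.

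Genes differ in length, and the 5′ part of a long gene reaches far from its start. The genes with 5′-part sites had a median span of 26104 nt in the proliferating and 47060.5 nt in the senescent list. Genes with sites in the other parts had median spans of 36333 nt and 70925 nt. In the senescent list, genes with a site within 1000 nt had a median span of 22436 nt, and those with 5′-part sites further away 60961.5 nt.

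The choice of annotated start mattered for single genes. RefSeq promoter windows, of which some genes have several, were matched for the genes of 14 of 24 proliferating and 68 of 94 senescent 5′-part sites. All 14 and 67 of the 68 were on the strand of the gene. For the other sites, PLEKHA7 among them, the strand of the gene was not checked, and a site on the opposite strand would lie towards the 3′ end instead. The exception was LHX4, whose site lay on the opposite strand and inside ACBD6 and LHX4-AS1 as well, so that it is a 5′-part site by the strand of the peak and lies towards the 3′ end of LHX4. Sites in other parts of genes were on the strand of the gene in 59 of 59 proliferating and 145 of 148 senescent cases. The HSP90AB1 site lay 925 nt from the outermost 5′ end but 18 nt from the nearest annotated start, and the AHDC1 site 735 nt and 2 nt. The XPO1, C1orf198, STAT5B and AEBP2 sites, singled out after their values were seen, lay 1235, 1276, 12779 and 36234 nt from the outermost end. Measured from the nearest annotated start, they lay at -290, 206, 800 and -293 nt, negative values being upstream.

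A site within 1000 nt of the 5′ end was listed for 42 genes, 9 in the proliferating list, 36 in the senescent list and 3 in both. They are described below by textbook role, assigned after the genes were known and not tested. Role counts are out of these 9 proliferating and 36 senescent genes and were not compared between the lists. The signal value is the authors' score per peak against input, on a scale that was not stated and with no value below 3. It is given here as the highest value of a site and is compared within a list alone.

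Among RNA-binding and RNA-processing genes, 2 had a proliferating and 5 a senescent near-start site. HNRNPD, which encodes an RNA-binding protein that regulates messenger RNA decay, was in both lists. Its sites spanned 82373674 to 82373748 and 82373675 to 82373749 on chromosome 4 (minus strand), 280 and 279 nt from the 5′ end, so the edges differed by 1 nt. The proliferating site had 2 peaks with a highest signal value of 3.83, and the senescent site 4 peaks with 6.36. The senescent site was the only near-start site whose -log10 p-value reached the ceiling of 400. U2AF2, the large subunit of the factor that recognises the 3′ splice site, had a senescent site of 3 peaks 76 nt from its start (chromosome 19, 55655069 to 55655153) with a signal value of 4.19. A second senescent site in U2AF2 lay 4185 nt from the start with 4.14. CCNL1, a cyclin linked to splicing, had a senescent site at 149 nt with 4.06. DDX41, a DEAD-box helicase, had one at 700 nt with 6.37, and ZFC3H1, a partner of the nuclear RNA exosome, had one at 782 nt with 6.04. SFPQ, a splicing factor of paraspeckles, had 2 proliferating sites at 653 and 856 nt with 4.50 and 3.49. Its senescent site lay elsewhere, 7845 nt from the 5′ end and at 46.8% of the span.

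Genes for transcription were 5 of the 36 with a senescent and 0 of the 9 with a proliferating near-start site. JUN, a subunit of the transcription factor AP-1, had a site of 1 peak at 7.66% of its span (chromosome 1, 58783737 to 58783859, minus strand) with a signal value of 3.08. TAF1B, a factor for RNA polymerase I, had one at 79 nt with 4.78. CIART, a repressor of the circadian clock, had one at 35 nt with 5.98. AHDC1 had one with 4.18, and MSC, a basic helix-loop-helix repressor, had one at 755 nt with 5.66. The MSC site also overlapped the annotated span of MSC-AS1.

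Of genes for secreted factors, matrix and signalling, 3 had a proliferating and 7 a senescent near-start site. VEGFA, the angiogenic growth factor, had 3 senescent peaks in a site 32 nt from its 5′ end (chromosome 6, 43770210 to 43770276) with a signal value of 4.50 and a -log10 p-value of 43.0. TGFB1, a growth factor that drives matrix production in fibroblasts, had 3 senescent peaks in a site at 207 nt (chromosome 19, 41353652 to 41353779) with 4.26. DVL3, which relays Wnt signals, had a senescent site at 51 nt with 5.07, and DKK3, of the Dickkopf family, one at 563 nt with 3.01. EXT1, an enzyme that builds heparan sulfate, had a senescent site at 38 nt with 3.01, and GPC1, a core protein carrying heparan sulfate, one at 301 nt with 3.06. The GPC1 site was the widest of the senescent 5′-part sites at 233 nt. ADAMTS1, a secreted protease of the matrix, was in both lists. It had proliferating sites at 449 and 897 nt with 3.47 and 3.35, and a senescent site at 430 nt with 3.88 and a -log10 p-value of 84.9. LTBP2, a matrix protein, had a proliferating site at 659 nt with 3.25. CD248, a membrane glycoprotein of stromal cells, had the proliferating site closest to a 5′ end, at 72 nt with 3.01. Its -log10 p-value of 3.06 was the lowest of all proliferating sites in protein-coding genes, and the strand of the gene was not checked.

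The largest role group was that of membranes, transport and organelles, with 13 genes, of which 2 had a proliferating and 12 a senescent near-start site. KIF5B, the heavy chain of the motor kinesin-1, was in both lists. Its sites spanned 32056180 to 32056252 and 32056185 to 32056296 on chromosome 10 (minus strand), 209 and 185 nt from the 5′ end, with signal values of 3.91 and 5.38. CAVIN3, a protein of caveolae, had a proliferating site at 211 nt with 4.21. TMBIM6, a membrane protein of the endoplasmic reticulum, had the senescent site closest to a 5′ end, at 22 nt with 3.15. TSG101, of the endosomal sorting machinery, TRAM1, which assists translocation into the endoplasmic reticulum, TMED9, a cargo receptor, and TTYH3 had senescent sites at 91, 116, 133 and 157 nt. Their signal values were 3.53, 3.77, 3.74 and 3.15. TMEM115, SARAF, a regulator of calcium entry, and LAMTOR5, of the Ragulator complex, followed at 228, 232 and 287 nt with 3.36, 3.005 and 4.40. AAK1, a kinase of clathrin adaptors, and ATP2A2, the calcium pump of the endoplasmic reticulum, lay further away at 761 and 953 nt with 4.41 and 3.13.

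The remaining near-start genes were chaperones, an intermediate filament gene, metabolic enzymes and genes without a shared role. HSPB1, a small heat shock protein, and NES, the intermediate filament protein nestin, had proliferating sites at 393 and 816 nt with signal values of 3.01 and 3.28. HSP90AB1, a cytosolic chaperone, had 3 senescent peaks in its site with 4.94. The glycolytic enzyme ENO1 had a senescent site at 365 nt with 4.75, while its 2 proliferating sites lay at 69.2% and 98.3% of the span. MGST3, a microsomal glutathione transferase, and SAT1, which acetylates polyamines, had senescent sites at 535 and 927 nt with 5.39 and 3.69. DIP2C and C11orf96 had senescent sites at 117 and 188 nt with 4.97 and 4.26. ENO1 and TTYH3 were the 2 genes with senescent 5′-part sites that had proliferating sites in other parts alone, and SFPQ and FLNC were the 2 of the opposite kind.

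5′-part sites in both lists were found in 6 genes, which are 31.6% of the 19 proliferating genes (exact 95% interval 12.6% to 56.6%) and 6.98% of the 86 genes of the senescent list (interval 2.60% to 14.6%). The same share over all genes with sites was not computed, so these shares are not read as particular to the 5′ part. In all 6 genes with 5′-part sites in both lists, the sites of the lists overlapped. Besides KIF5B, HNRNPD and ADAMTS1 these were RPSA, MATR3 and GAS6. In GAS6, a secreted ligand of receptor tyrosine kinases, the sites spanned 113853895 to 113853972 and 113853897 to 113854007 on chromosome 13 (minus strand), about 23.3% into the span. The proliferating GAS6 site had a signal value of 3.54 and the senescent one 5.23, at the p-value ceiling. In RPSA, a protein of the small ribosomal subunit, the sites coincided with the small nucleolar RNA gene SNORA6. In MATR3, a nuclear matrix protein, they coincided with another such gene, SNORA74A. The MATR3 sites also lay inside the annotated spans of SNHG4 and LOC124901081, both long noncoding RNA genes. Binding to the small RNA and to any longer transcript over the same bases thus cannot be told apart. The RPSA sites had values of 5.69 and 6.50, and the MATR3 sites, the highest 5′-part sites of both lists, 7.52 and 7.94.

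**Figure D3:**
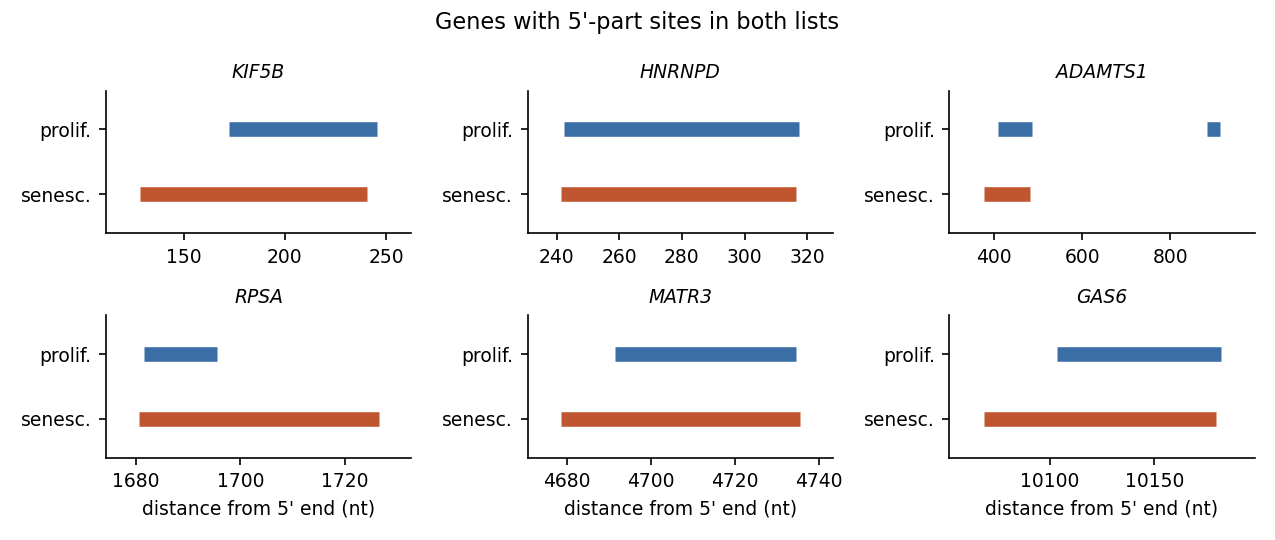
Extent of the 5′-part sites in the 6 genes found in both lists (x axis, distance from the annotated 5′ end in nt, a separate scale per gene), with the proliferating list above in blue and the senescent list below in orange. The HNRNPD edges differ by 1 nt, and the second proliferating site of ADAMTS1, at 897 nt, has no senescent counterpart.

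Overlap with the other list was not distinguishable between 5′-part sites and other sites. Of the proliferating 5′-part sites, 6 of 24 overlapped a senescent site by at least 1 base (25%, exact 95% interval 9.77% to 46.7%), against 20.6% of all proliferating sites in protein-coding genes. Among the proliferating sites outside the 5′ part, 16 of 83 did (19.3%), a difference of 5.72 points (Fisher's exact p 0.571, adjusted over the 2 lists 0.640). Of the senescent 5′-part sites, 6 of 94 overlapped a proliferating site (6.38%, exact 95% interval 2.38% to 13.4%), against 8% of all. Among the other senescent sites 16 of 181 did (8.84%), a difference of -2.46 points (Fisher's exact p 0.640, adjusted 0.640). A p-value above the threshold does not show that the shares are equal.

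Away from the start, the proliferating list held 13 5′-part sites beyond 1000 nt. Of these, 4 lay over small RNA genes, in RPSA, MATR3 and SNX5, whose 2 sites were over SNORD17, and 2 lay over pseudogenes of small RNAs. The latter were PLEKHA7, over the 7SK pseudogene RN7SKP90, with a signal value of 4.87 and a peak on the plus strand, and MED12L, over the 5S pseudogene RNA5SP145, with 4.64. The other 7 sites were in COL1A1, FLNA, FLNC, GAS6 and FAM234B. COL1A1, the main chain of type I collagen, had 3 proliferating sites at 2213, 2319 and 3190 nt, with values of 3.06, 3.28 and 3.09 and -log10 p-values of 27.4, 45.2 and 39.4. These COL1A1 sites were narrow, at 2, 19 and 18 nt, against a median width of 53 nt for proliferating 5′-part sites. The actin crosslinkers FLNA and FLNC had sites at 7172 and 8371 nt with 3.01 and 3.10. FAM234B had a site at 1792 nt with 4.60. COL1A1 had no senescent 5′-part site.

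The senescent list held 58 5′-part sites beyond 1000 nt, in 52 genes, of which 7 sites lay more than 50000 nt from the 5′ end. Of the 58 sites, 3 lay over small RNA genes, in RPSA, MATR3 and KCTD2, the last over a transfer RNA gene. A further 1 lay over a pseudogene, in MANBA. After MATR3 and RPSA the highest were MTCL2, a microtubule-binding protein, at 16227 nt with a signal value of 6.48, and, nearer the start, the sites of DDX41 and HNRNPD given above. SF1, which binds the branch point in splicing, had a site of 2 peaks at 3166 nt with 5.82. TEAD1, a transcription factor of the Hippo pathway, had one at 27084 nt with 5.50, and AHNAK, a giant scaffold protein, one at 29474 nt with 5.01. NALF1 had 3 sites, at 36747, 65633 and 150492 nt. The site furthest from a 5′ end was in KIAA1217, at 173383 nt with 4.44.

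Near-start sites had lower signal values than distant 5′-part sites in the senescent list. The median was 4.23 for the 36 sites within 1000 nt (quartiles 3.49 and 5.00, highest 6.37) and 5.24 for the 58 beyond it (quartiles 4.47 and 5.65, highest 7.94). The other 181 senescent sites had a median of 4.83. Widths ran the other way, with a median of 84 nt near the start and 69 nt beyond. The median -log10 p-value was 14.0 near the start and 11.6 beyond. In the proliferating list the medians of the signal value were 3.47 for 11 and 3.99 for 13 sites, with the latter including the 6 over small RNA genes and their pseudogenes. These differences were not tested, and the ranges overlap in both lists.

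**Figure D4:**
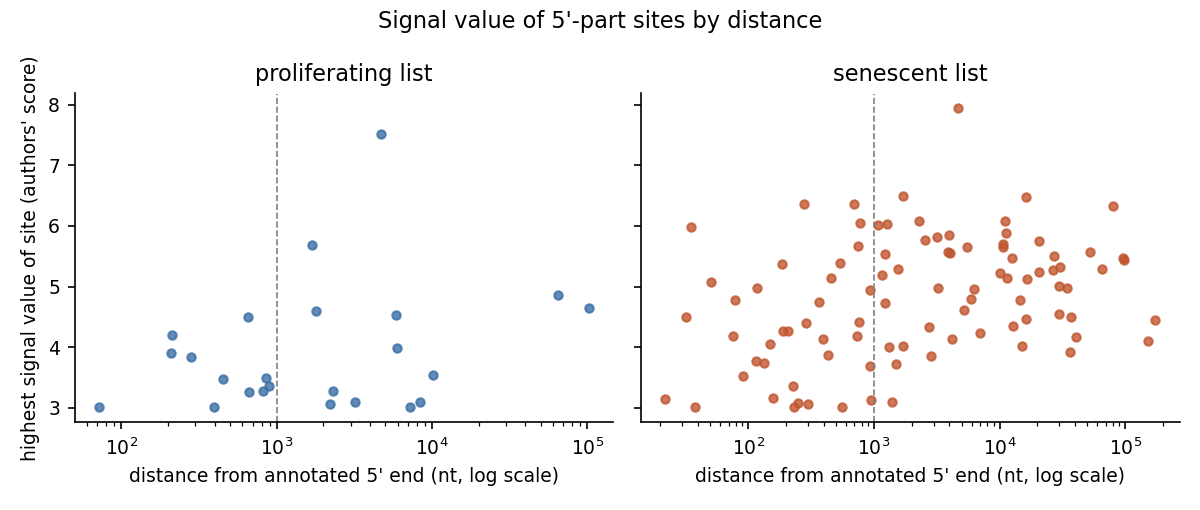
Highest signal value of each 5′-part site (y axis, the authors' score, scale not stated) by distance from the annotated 5′ end (x axis, nt, log scale), for the proliferating list (left, 24 sites) and the senescent list (right, 94 sites). The dashed line marks 1000 nt, and the median to the left and right of it is 4.23 and 5.24 in the senescent list and 3.47 and 3.99 in the proliferating list.

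Strength and division into peaks of 5′-part sites are given beside the other sites of the same list, with no test. A -log10 p-value of at least 10 was reached by 15 of 24 proliferating 5′-part sites (62.5%, exact 95% interval 40.6% to 81.2%) and 39 of 83 proliferating sites outside the 5′ part (47.0%, interval 35.9% to 58.3%), against 50.5% of all proliferating sites in protein-coding genes. The median -log10 p-value was 13.5 in the former and 9.45 in the latter. In the senescent list 63 of 94 reached it (67.0%, exact 95% interval 56.6% to 76.4%) and 115 of 181 others (63.5%), against 64.7% of all, with medians of 12.0 and 12.3. Sites of 2 or more peaks were 5 of 24 (20.8%) against 16.8% in the proliferating list, and 66 of 94 (70.2%) against 70.5% in the senescent list. The ceiling of the p-value was reached by 1 and 4 5′-part sites, against 1.87% and 4.36% of all. Another annotated gene of any class covered the middle base of 7 of 24 proliferating and 15 of 94 senescent 5′-part sites, and of 10 of 83 and 24 of 181 other sites.

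The gene lists written for fibroblast functions gave few members. They do not hold every gene of a class, so a count of 0 does not cover the whole class. SFPQ, with 2 proliferating 5′-part sites, is not in the splicing and RNA-processing list. ADAMTS1, with 5′-part sites in both peak lists, and LTBP2, with a proliferating one, are not in the matrix list. In the splicing and RNA-processing list, 1 of 53 genes had a proliferating 5′-part site (HNRNPD) and 3 of 53 a senescent one (HNRNPD, SF1 and U2AF2), while 2 and 9 had a site anywhere in the gene. Of 32 genes of the cytoskeleton, linkers and lamina, 3 had a proliferating 5′-part site (FLNA, FLNC and NES) of 10 with any site, and 1 a senescent one (AHNAK) of 7. Of 40 matrix genes, 1 had a proliferating 5′-part site (COL1A1) of 9 with any site, and 0 a senescent one of 5. Of 42 chromatin and transcription genes, 0 and 2 (JUN and TEAD1) had one, and of 30 translation genes 0 and 0. Over all protein-coding genes the share was 0.0947% and 0.429%, but that set includes genes whose expression in these cells was not examined. Of 9 fibroblast marker genes, 4 had a proliferating site (COL1A1, COL1A2, COL3A1 and DCN) and 1 a senescent one (DCN). A peak shows that the transcript was bound and gives no level, so the markers check the cell type only in part.

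The median G and C content of promoter windows of near-start genes lay within the middle range of all windows. The windows of 300 nt around the nearest start had a median of 66.0% G or C for the 25 senescent sites with a window (range 55.3% to 86.0%) and 61.0% for the 5 proliferating ones, against 62.3% for 22199 windows of all protein-coding genes (quartiles 53.0% and 70.0%). Over the 50 nt after the start the median was 64% in all 3 sets. On either strand, the letters GGCGG were present in 25 of 25 senescent windows (exact 95% interval 86.3% to 100%). They were present in 5 of 5 proliferating windows (interval 47.8% to 100%) and in 71.6% of all. The senescent interval lay above the share of all windows, a difference that was not tested. The letters CCCTC, for which CTCF is named, were present in 22 of 25 senescent windows (88.0%, exact 95% interval 68.8% to 97.5%), 4 of 5 proliferating windows and 76.6% of all. The letters GGTAAG, which match a splice donor, were present in 2 of 25, 0 of 5 and 7.28%. These letters overlap in G- and C-rich DNA and are a description of the windows alone.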

How the data were processed

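Both peak lists were deposited as narrowPeak files on hg38, 1 per condition and normalised to input by the authors, per the file headers. Each is attached to replicate 1 alone, but its header name refers to both replicates, so it was taken as their joint list, which is an assumption. The signal value is the authors' score, whose scale is not stated. The authors' p-value is given as -log10 with a ceiling of 400. Aligner, peak caller and thresholds are not given in the sources used here. Peaks were assigned by their middle base to the shortest overlapping protein-coding gene of RefSeq (GRCh38.p14), with Python 3.11.15, pandas 2.3.3 and SciPy 1.17.1. Peaks of 1 list and strand within 50 nt were joined into sites, and a site counted as 5′-part if any of its peaks did. For shares, a two-sided Fisher's exact test at a threshold of 0.05 was used, with Benjamini-Hochberg adjustment where stated, and the code was tested on simulated data. Named genes were those with a site within 1000 nt of the 5′ end, those in both lists, the 5 highest sites of each list and members of the gene lists, and others are said to be singled out or stand as exceptions or extremes. Members, lists and tests were chosen with earlier results of these data known. Some genes that meet this rule are included in the counts but are not reported here by name.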

Additional observations from a re-analysis of the deposited data

How the results depend on the processing

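The 15 results were recomputed under 137 alternative settings, 17 of them added once the data had been seen (chosen after seeing the data). In 112 the call was kept, or a count stayed within its set limit, or a share or median distance within its interval from the main setting. With only peaks above the median signal value of their list there were 16 proliferating and 99 senescent 5′-part peaks, 12 and 53 sites, 11 and 51 genes, and 4 and 13 sites within 1000 nt. A -log10 p-value of at least 10 left 20 and 126 peaks, 15 proliferating sites, 11 and 57 genes, and 6 and 23 sites within 1000 nt. With the senescent list cut by signal value to 147 peaks, as many as the other has, there were 55 peaks, 34 sites, 33 genes and 7 sites within 1000 nt. All these settings leave fewer peaks, and those that cut by signal value also leave fewer of the senescent near-start sites, whose signal values are lower. The median distance was counted as kept in every setting because its interval is wide, so that label says little about it. From 1740 nt (proliferating) and 2006.5 nt (senescent) it moved to 856 and 1255.5 nt with the first of 4 equal parts. With peaks above the median signal value it was 3252.5 and 4061 nt. It was 876.5 nt without small RNA sites (proliferating) and 4032 nt with the shortened senescent list. Taking the first of 4 equal parts of the span put 27.4% of senescent peaks there. Counting from the nearest start of the promoter table left 5 proliferating sites within 1000 nt, since fewer genes were matched. The difference in the 5′-part share lay between 6.49 and 15.8 points in 11 settings (Fisher's exact p between 0.0106 and 0.470). It missed the threshold with 1 site per gene (8.78 points), with the p-value minimum (7.62 points) and with peaks above the median signal value (6.49 points), and the cause was not tested. The senescent difference in overlap turned to 0.780 points with peaks above the median signal value (adjusted Fisher's exact p 1), and the cause was not tested. Joining peaks at other distances was not run for counts of peaks and genes, which it cannot change. No paired analysis was possible because neither list separates its replicates, and leaving out replicates was not run for the same reason. The unknown depth limits any comparison of the number of sites between the lists.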
